A study of Homo sapiens with 8 samples.

Results

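A set of 7 genes, chosen from 27432 in the all-read table, separated an HMGN1 mutant line of NALM6 cells from the wild-type line. COL5A1, LOC101448202, PTPRF, AK1 and C8orf73 were lower in the mutant line, and MYBPC2 and SORCS2 were higher. The genes were chosen by their all-read signal (CPM) in the 2 mutant libraries, which differed from that in both groups of the wild-type line. Differences between the lines are therefore given as a description, with no test. These are not the only genes that separate the lines. Among 12464 genes with a mean of at least 1 CPM, both mutant libraries lay below every wild-type-line library in 667 (5.35%). They lay above every one in 120 (0.963%). NALM6 is a human leukaemia cell line with the features of precursor B cells, and HMGN1 is a nucleosome-binding chromatin protein. Induced mutant cells (libraries A and B) carried the S20,24E form of HMGN1, labelled as deficient in nucleosome binding, and received doxycycline at 100 ng/ml. Induced wild-type cells (A to C) carried wild-type HMGN1 and received the same dose, and vehicle cells (A to C) carried wild-type HMGN1 and received vehicle. Treatment lasted 6 h, and all cells had 4-thiouridine at 100 µM for the last 5 h. The labels do not say whether a line is a single clone. No mutant library without doxycycline was analysed here, so the line and the form of HMGN1 cannot be told apart.

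The amount of an RNA depends on how fast it is made and how fast it is lost. In SLAM-seq, RNA made while 4-thiouridine is present is read with T-to-C conversions, so the conversion rate of a gene rises with the recent share of its RNA. The genes have unlike roles. COL5A1 encodes a chain of type V collagen, which helps to set the diameter of collagen fibrils in connective tissue, and LOC101448202 is a long non-coding RNA gene whose RefSeq span overlaps that of COL5A1. PTPRF (LAR) is a receptor tyrosine phosphatase of cell adhesion and axon guidance, and AK1 is the cytosolic adenylate kinase, which interconverts adenine nucleotides. C8orf73 is an older symbol of MROH6, a gene of the maestro heat-like repeat family. MYBPC2 encodes the myosin-binding protein C of fast skeletal muscle, and SORCS2 is a VPS10-domain sorting receptor best known from neurons.

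RefSeq's promoter table for GRCh38.p14 held 3 of the 7 genes, all lower in the mutant line. The 250 bases before the first listed start of each are shown, and their relation to level or conversion was not tested. Capitals mark GC boxes (GGGCGG, or CCGCCC on the other strand) and TATA boxes (TATAAA, or TTTATA on the other strand), and sequences run 5′ to 3′.
COL5A1, chr9:134641553-134641802, plus strand: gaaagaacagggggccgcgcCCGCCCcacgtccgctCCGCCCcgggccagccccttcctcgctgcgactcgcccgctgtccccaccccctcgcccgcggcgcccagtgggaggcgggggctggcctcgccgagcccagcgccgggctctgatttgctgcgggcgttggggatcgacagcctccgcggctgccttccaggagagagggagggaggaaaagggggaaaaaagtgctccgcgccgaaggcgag
PTPRF, chr1:43530633-43530882, plus strand: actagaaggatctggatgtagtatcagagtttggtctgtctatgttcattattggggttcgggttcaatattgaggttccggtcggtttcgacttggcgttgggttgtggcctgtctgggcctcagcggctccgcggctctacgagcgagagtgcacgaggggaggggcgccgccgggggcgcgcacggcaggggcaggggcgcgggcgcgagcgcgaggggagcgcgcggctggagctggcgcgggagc
AK1, chr9:127877676-127877925, minus strand: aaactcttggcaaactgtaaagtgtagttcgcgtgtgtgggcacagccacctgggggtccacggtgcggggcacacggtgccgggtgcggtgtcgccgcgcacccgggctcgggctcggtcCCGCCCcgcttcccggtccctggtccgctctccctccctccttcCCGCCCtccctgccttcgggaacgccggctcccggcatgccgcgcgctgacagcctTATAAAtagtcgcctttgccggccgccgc
COL5A1 and AK1 held 2 GC boxes each and PTPRF none, and 42.6% of the 35116 windows in the table held at least 1. AK1 also held 1 TATA box, found in 10.7% of windows. The windows were 74% (COL5A1), 66% (PTPRF) and 70% (AK1) G or C, against a median of 58%. A match describes letters only.

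Libraries held 7.99 to 17.7 M reads, with 3.43 to 7.85 M in the gene rows used. HMGN1 stood at 223 and 200 CPM in induced mutant A and B, 217 to 317 CPM in induced wild type and 145 to 191 CPM with vehicle. Its conversion rate was 4.64% and 2.0% in induced mutant A and B, 3.24% to 7.12% in induced wild type and 1.04% to 1.69% with vehicle. For conversion, both induced groups lay above vehicle, with an exact two-sided permutation p of 0.1 each, the smallest that these group sizes allow. The median conversion rate over genes with at least 10 reads was 6.85% and 5.46% in induced mutant A and B, 5.39% to 7.30% in induced wild type and 4.96% to 6.74% with vehicle. All 12 precursor B-cell markers averaged at least 1 CPM. So did 2 of 6 myeloid markers, with CSF1R at a mean of 415 CPM, but none of 6 T-cell and 5 epithelial markers. P-values measure only the spread between libraries that the labels call biological replicates, without saying whether they were separate cultures.

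COL5A1 was the protein-coding gene of the set with the lowest mutant signal relative to the wild-type line. Its signal was 1.64 and 1.38 CPM in induced mutant A and B, against 12.0, 10.9 and 14.6 CPM in induced wild type A to C and 7.31, 13.2 and 11.8 CPM with vehicle A to C. Both mutant libraries lay below every library of the wild-type line, whose own groups overlapped. The mean was 1.51 ± 0.18 CPM in induced mutant (SD, n = 2), against 12.5 ± 1.88 in induced wild type and 10.8 ± 3.07 with vehicle (SD, n = 3 each). The ratio of means, mutant over the 6 libraries of the wild-type line, was 0.130. It rested on 17 and 16 reads in induced mutant, against 87 to 201 in induced wild type and 65 to 209 with vehicle. Of 10 fibroblast markers 2 averaged at least 1 CPM, and COL3A1, LUM and THY1 were at 0 throughout. Their summed signal was 26.2 to 36.0 CPM in induced mutant, 40.9 to 78.3 in induced wild type and 31.0 to 58.5 with vehicle, mostly PDGFRA, and its part in the result was not tested. In bulk RNA, fewer cells that make a transcript and less of it per cell cannot be told apart.

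LOC101448202 had the same pattern as COL5A1. It stood at 0.964 and 0.862 CPM in induced mutant A and B, against 9.11, 8.14 and 8.84 CPM in induced wild type A to C and 6.30, 8.86 and 8.96 CPM with vehicle A to C. The mutant libraries again lay below all others. Its reads were 0.588 and 0.625 of those of COL5A1 in induced mutant A and B, 0.607 to 0.757 in induced wild type and 0.671 to 0.862 with vehicle. Its conversion rate was 0 in 7 of the 8 libraries and 0.143% in vehicle C. Of 9402 genes with a mean of at least 50 reads, 19 (0.202%) were at 0 in at least 7 libraries. Of the 14 among them with exons in GENCODE 29, 10 (71.4%) overlapped an exon of the opposite strand, against 2557 of 8443 such genes (30.3%). The strand of LOC101448202 was not in the tables used, so whether it is such an overlap is not known here. Whether reads of COL5A1 were counted for LOC101448202 was not tested, so its level and its lack of conversions are uncertain.

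PTPRF, AK1 and C8orf73 were lower by smaller factors. PTPRF stood at 5.88 and 5.09 CPM in induced mutant A and B, against 13.5, 15.5 and 16.8 CPM in induced wild type A to C and 11.4, 19.3 and 13.1 CPM with vehicle A to C. AK1 stood at 2.31 and 1.72 CPM in induced mutant A and B, against 5.91, 5.51 and 4.56 CPM in induced wild type A to C and 6.97, 5.90 and 5.63 CPM with vehicle A to C. C8orf73 stood at 2.41 and 2.67 CPM in induced mutant A and B, against 9.66, 6.89 and 8.04 CPM in induced wild type A to C and 8.10, 8.42 and 10.4 CPM with vehicle A to C. In all 3 genes the mutant libraries lay below the whole wild-type line, and induced wild type and vehicle overlapped. The ratio of means, mutant over wild-type line, was 0.368 for PTPRF, 0.351 for AK1 and 0.296 for C8orf73. The mutant values rested on 61 and 59 reads for PTPRF, 24 and 20 for AK1 and 25 and 31 for C8orf73.

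MYBPC2 and SORCS2 were higher in the mutant line. MYBPC2 stood at 7.33 and 4.74 CPM in induced mutant A and B, against 0.765, 1.00 and 1.01 CPM in induced wild type A to C and 0.675, 0.955 and 1.01 CPM with vehicle A to C. SORCS2 stood at 4.34 and 2.76 CPM in induced mutant A and B, against 0.973, 1.88 and 0.942 CPM in induced wild type A to C and 1.12, 0.521 and 1.35 CPM with vehicle A to C. Both mutant libraries exceeded every other library in each gene, and mutant A was the higher of the pair. The ratio of means, mutant over wild-type line, was 6.67 for MYBPC2 and 3.14 for SORCS2. MYBPC2 rested on 76 and 55 reads in induced mutant, against 8 to 14 in induced wild type and 6 to 18 with vehicle. SORCS2 rested on 45 and 32 reads in induced mutant, against 13 to 15 in induced wild type and 6 to 24 with vehicle. Of 10 skeletal muscle markers none averaged 1 CPM, and MYH1, MYH2, MYH7, DES and MYOD1 were at 0 throughout. The muscle sum was 0.259 to 0.675 CPM in induced mutant, 0.507 to 1.25 in induced wild type and 0.225 to 0.507 with vehicle. Of 8 neuronal markers 2 averaged at least 1 CPM. The neuronal sum was 2.41 to 3.09 CPM in induced mutant, 3.63 to 3.77 in induced wild type and 3.66 to 4.78 with vehicle.

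**Figure D1:**
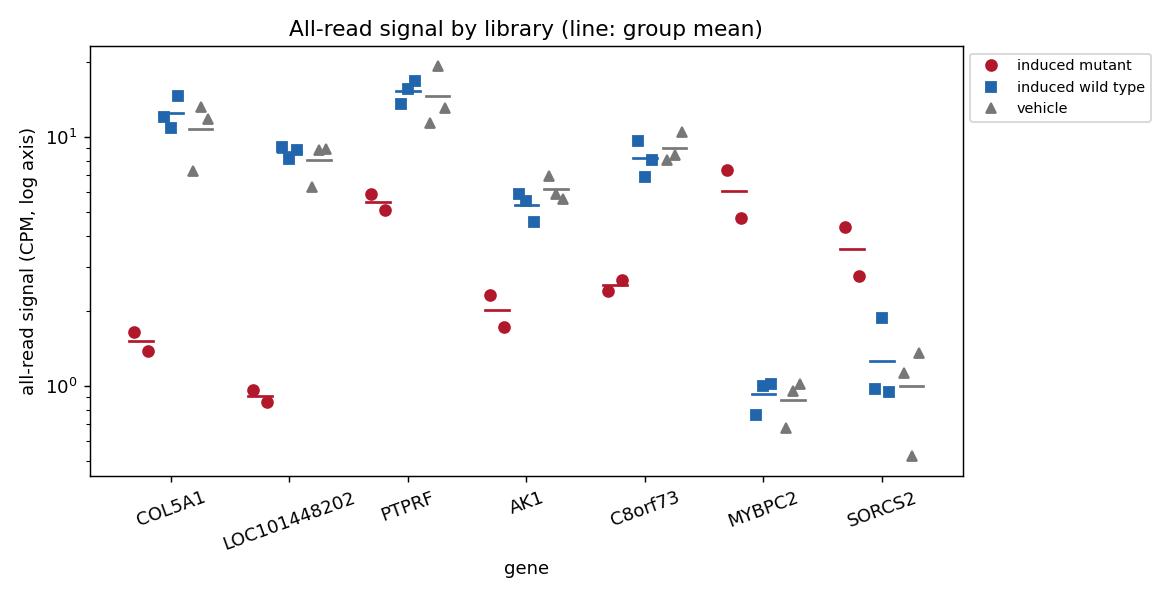
All-read signal (CPM, log axis) of the 7 genes, 1 point per library, for induced mutant (n = 2), induced wild type (n = 3) and vehicle (n = 3), with a line at each group mean. The mutant points of COL5A1 (1.64 and 1.38 CPM) lie below the wild-type-line points (7.31 to 14.6 CPM), and those of MYBPC2 (7.33 and 4.74 CPM) lie above theirs (0.675 to 1.01 CPM).

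By the choice of genes, 5 lay below and 2 above all 6 libraries of the wild-type line, which held for 5.35% (lower) and 0.963% (higher) of the 12464 genes with a mean of at least 1 CPM. In a limma fit of log2(CPM + 1) across those genes, which understates the change of low genes, COL5A1 differed by -2.19 from vehicle and -2.42 from induced wild type (SE 0.29 each). LOC101448202 differed by -2.23 from vehicle and -2.34 from induced wild type (SE 0.25 each). Against vehicle, the difference was -1.23 for PTPRF, -1.25 for AK1 and -1.49 for C8orf73 (SE 0.25 each), and against induced wild type it was -1.33, -1.07 and -1.37 for the same genes. The size of the difference was similar against either group of the wild-type line. The genes were chosen to differ from both groups, so this similarity is no independent result. MYBPC2 differed by 1.88 from vehicle and 1.85 from induced wild type (SE 0.23 each), and SORCS2 by 1.19 and 1.01 (SE 0.29 each). MYBPC2 averaged 0.904 CPM over the wild-type line, so it was among the 12464 genes only through its mutant libraries. The median over all genes was -0.04 against vehicle and -0.12 against induced wild type. The comparisons share the mutant libraries.

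The conversion rate, given as a percentage of bases, follows the recent share of a gene's RNA and not the amount made. COL5A1 had 5.53% and 2.78% in induced mutant A and B, against 1.40%, 1.15% and 1.68% in induced wild type A to C and 1.87%, 1.25% and 1.44% with vehicle A to C. Both mutant values were above all others, although they rest on 17 and 16 reads. Relative to the median of its library, COL5A1 stood at 0.807 and 0.509 in induced mutant, 0.210 to 0.231 in induced wild type and 0.213 to 0.376 with vehicle. PTPRF had 4.33% and 1.08% in induced mutant A and B, against 1.60%, 0.443% and 1.27% in induced wild type A to C and 0.533%, 1.25% and 1.08% with vehicle A to C. Mutant A was above all other libraries and mutant B lay among them. In the wild-type line both genes were at low conversion, at percentiles 7.48 to 14.7 for COL5A1 and 4.13 to 8.48 for PTPRF among genes with at least 10 reads.

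The mutant libraries of AK1 and C8orf73 lay on both sides of the wild-type line in conversion. AK1 had 10.8% and 3.59% in induced mutant A and B, against 4.97%, 6.09% and 6.79% in induced wild type A to C and 3.73%, 4.94% and 7.0% with vehicle A to C. C8orf73 had 5.43% and 8.67% in induced mutant A and B, against 6.53%, 6.83% and 7.67% in induced wild type A to C and 6.51%, 5.66% and 6.54% with vehicle A to C. The higher mutant library was A for AK1, at 1.57 times its library's median, and B for C8orf73, at 1.59 times.

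MYBPC2 had 11.3% and 10.7% in induced mutant A and B, against 6.62%, 8.45% and 8.72% in induced wild type A to C and 1.75%, 1.90% and 10.2% with vehicle A to C. The mutant values were the highest, with vehicle C close to them. SORCS2 had 6.16% and 6.36% in induced mutant A and B, against 15.0%, 7.22% and 11.4% in induced wild type A to C and 0%, 3.12% and 4.67% with vehicle A to C. The mutant values lay between those of induced wild type and vehicle. Induced wild type B and vehicle A of MYBPC2 and vehicle B of SORCS2 had fewer than 10 reads and were left out of the fit. Of the 7 genes, COL5A1 and MYBPC2 were above all libraries of the wild-type line in conversion and none was below, against 1.85% and 2.33% of the 12027 genes tested. These shares leave out values under 10 reads and cover genes of any depth above that. LOC101448202 and SORCS2 had values of 0 in the wild-type line, so they could not lie below it.

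**Figure D2:**
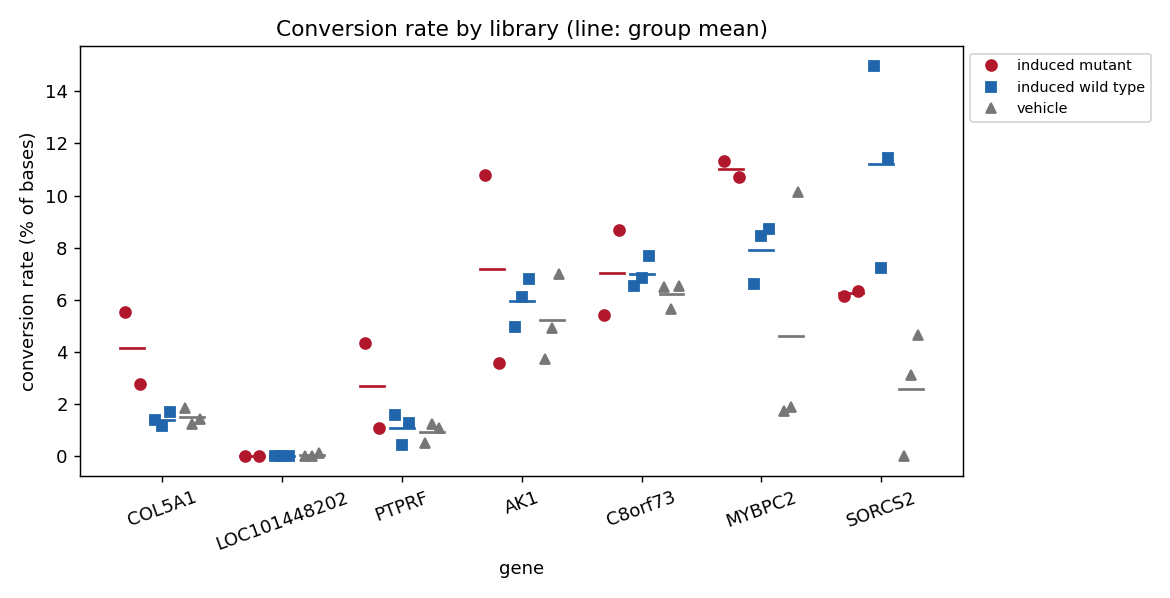
Conversion rate (percent of bases) of the 7 genes, 1 point per library, for induced mutant (n = 2), induced wild type (n = 3) and vehicle (n = 3), with a line at each group mean. The mutant points of COL5A1 (5.53% and 2.78%) lie above the wild-type-line points (1.15% to 1.87%), those of AK1 and C8orf73 lie on both sides of theirs, and LOC101448202 is at 0 or 0.143%.

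In a limma fit of log2(conversion percent + 1), with each library centred on its median, COL5A1 differed in induced mutant by 0.93 from vehicle and 1.11 from induced wild type (SE 0.22 each). PTPRF differed by 0.73 and 0.77 (SE 0.31 each), and without mutant A by 0.19 and 0.23. AK1 differed by 0.22 and 0.15 (SE 0.30 each), and C8orf73 by 0.07 and 0.04 (SE 0.25 each). Without mutant A the difference of AK1 from vehicle was -0.32, and without mutant B that of C8orf73 was -0.37. MYBPC2 differed by 1.12 and 0.65 (SE 0.54 each) with 2 library values missing. SORCS2 differed by 1.54 from vehicle (SE 0.62) and -0.64 from induced wild type (SE 0.57) with 1 missing.

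Multiplying CPM by the conversion rate as a fraction gives a signal of new RNA. No background rate was subtracted, and rates were not centred on the library medians, which ran from 4.96% to 7.30%. All cells had 4-thiouridine, so the background is not known here. It weighs most at low conversion, as for COL5A1 and PTPRF in the wild-type line. The new-RNA signal contains the CPM that chose the genes, so its separation of the lines is no independent result. For COL5A1 it was 0.0907 and 0.0383 in induced mutant A and B, against 0.168, 0.125 and 0.245 in induced wild type A to C and 0.137, 0.165 and 0.169 with vehicle A to C. The mutant libraries were below all others, by a ratio of means (mutant over wild-type line) of 0.383, where the all-read ratio was 0.130. For PTPRF it was 0.255 and 0.0547 in induced mutant A and B, against 0.216, 0.0688 and 0.213 in induced wild type A to C and 0.0605, 0.241 and 0.141 with vehicle A to C. The mutant libraries were the highest and the lowest of the 8, and the ratio of means was 0.987, where the all-read ratio was 0.368.

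AK1 new RNA was 0.25 and 0.0618 in induced mutant A and B, against 0.293 to 0.336 in induced wild type and 0.260 to 0.394 with vehicle, with a ratio of means of 0.496. Mutant A was just below the lowest vehicle library. C8orf73 new RNA was 0.131 and 0.232 in induced mutant A and B, against 0.470 to 0.631 in induced wild type and 0.477 to 0.682 with vehicle. Its ratio of means was 0.319, close to its all-read ratio of 0.296. MYBPC2 new RNA was 0.830 and 0.508 in induced mutant A and B, against 0.0506 to 0.0885 in induced wild type and 0.0118 to 0.103 with vehicle, with a ratio of means of 11.3. SORCS2 new RNA was 0.267 and 0.175 in induced mutant A and B, against 0.108 to 0.146 in induced wild type and 0 to 0.0631 with vehicle, with a ratio of means of 2.83. The mutant conversion of SORCS2 was below all induced wild-type values, so against that group its new-RNA signal was higher through the CPM factor alone.

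**Figure D3:**
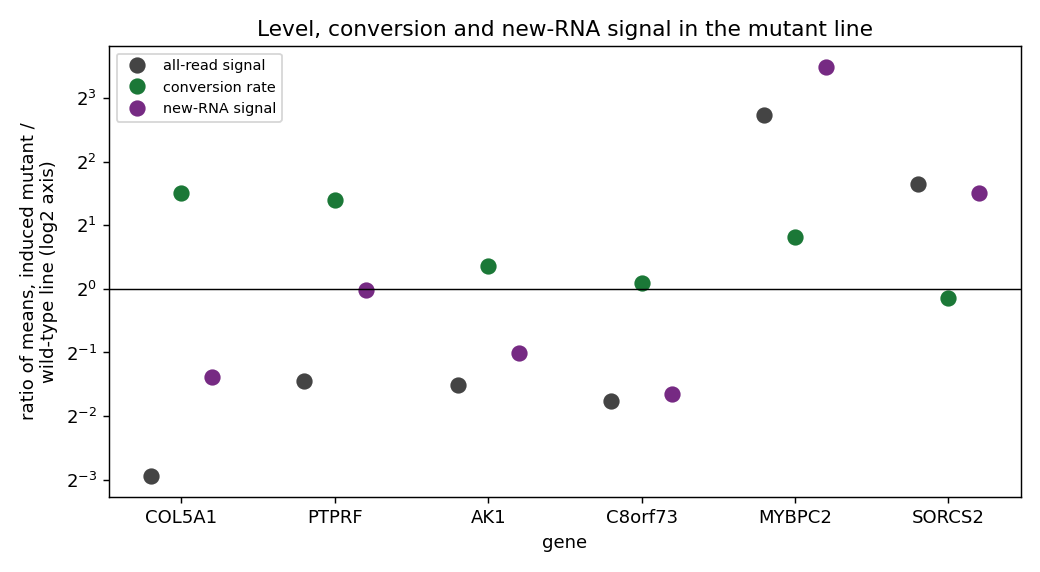
Ratio of means, induced mutant (n = 2) over the wild-type line (n = 6), of all-read signal, conversion rate and new-RNA signal (log2 axis, line at equality, no error bars). COL5A1 is at 0.130 in all reads and 0.383 in new RNA, PTPRF at 0.368 and 0.987, C8orf73 at 0.296 and 0.319, and MYBPC2 at 6.67 and 11.3.

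The deposited table of converted reads, in FPKM of unknown depth, listed 3 of the 7 genes. COL5A1 was at 0 in induced mutant A and B, against 1.33, 0 and 1.43 FPKM in induced wild type A to C and 0, 0.95 and 0.88 FPKM with vehicle A to C. PTPRF was at 1.48 and 0 FPKM in induced mutant A and B, against 0.89, 0 and 0.41 FPKM in induced wild type A to C and 0, 0.31 and 0.35 FPKM with vehicle A to C. C8orf73 was at 0 and 0.32 FPKM in induced mutant A and B, against 1.33, 2.93 and 1.23 FPKM in induced wild type A to C and 2.1, 0.64 and 1.93 FPKM with vehicle A to C. Its mutant values were below all others, while COL5A1 and PTPRF shared values of 0 between the lines.

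Induced wild type against vehicle was not used to choose the genes and could be tested. MYBPC2 averaged 0.904 CPM over the 6 libraries of the wild-type line. It met the limit of at least 1 CPM in all reads only through its mutant libraries, so its all-read test depends on that choice. None of the 7 passed in all reads, with log2 differences from -0.18 (AK1, SE 0.22) to 0.23 (COL5A1, SE 0.26) and limma adjusted p from 0.992 to 0.995. Limma called 0 of 12464 genes (0%) here, edgeR 0 and DESeq2 2 on recovered reads, and 118 genes (0.947%) had an unadjusted limma p under 0.05. In conversion none of the 7 passed either, with limma adjusted p from 0.967 to 0.997. SORCS2 had the largest difference, 2.18 (SE 0.57, limma adjusted p = 0.967). Its 3 induced wild-type values lay above the vehicle values, as for 5.8% of genes. Limma called 0 of 12027 genes (0%) in conversion, where 538 (4.47%) had an unadjusted p under 0.05.

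Of 86 genes related to the members by role, 41 were tested in all reads and none passed in any comparison. Over all 12464 genes, 4 (0.0321%) passed the limma test against vehicle and 467 (3.75%) had an unadjusted p under 0.05, while against induced wild type the numbers were 4 (0.0321%) and 342 (2.74%). In induced mutant against vehicle, 31 of the 41 were below 0 with a median of -0.19, where 57.5% of all genes were below 0. Against induced wild type 37 were below 0 with a median of -0.21, where 73.4% of all genes were. Of 10 fibrillar collagen genes 2 were tested. COL11A2, a chain of type XI collagen, averaged 3.99 ± 0.64 CPM in induced mutant (SD, n = 2), against 5.66 ± 0.05 in induced wild type and 5.35 ± 0.75 with vehicle (n = 3 each). COL27A1 averaged 4.19 ± 1.30 CPM in induced mutant, against 6.45 ± 2.25 in induced wild type and 5.43 ± 1.88 with vehicle.

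Of 8 tested collagen-processing genes, BMP1, a procollagen proteinase, was at -0.63 from vehicle (SE 0.25) and P4HA2, a prolyl hydroxylase subunit, at -0.56 (SE 0.25). PTPRS, a LAR-family phosphatase, averaged 17.4 ± 1.44 CPM in induced mutant (SD, n = 2), against 27.1 ± 2.06 in induced wild type and 26.7 ± 5.78 with vehicle (n = 3 each). Its difference was -0.57 from vehicle and -0.61 from induced wild type (SE 0.20 each). TRIO, an exchange factor that binds LAR, was at 0.55 from vehicle (SE 0.47). Of 9 tested nucleotide kinases and deaminases, CMPK1 was at -0.49 (SE 0.19) and the guanylate kinase GUK1 at -0.30 (SE 0.23). Of 7 tested VPS10 receptors and partners, GRN, which encodes the sortilin ligand progranulin, was at -0.32 (SE 0.15) and the sorting adaptor GGA1 at -0.19 (SE 0.19). All 5 tested sarcomere genes were below 0 in both comparisons, as were 57.5% of all genes against vehicle and 73.4% against induced wild type. The comparisons share the mutant libraries. From vehicle, TPM2 was at -0.33 (SE 0.25) and NEB at -0.27 (SE 0.34). MROH1 and MROH8, listed under older symbols, were at -0.26 (SE 0.21) and -0.04 (SE 0.29). The limma adjusted p of each of these genes was above 0.99 in all reads.

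In conversion, 42 of the related genes were tested and none passed in any comparison. Over all 12027 genes, 0 (0%) passed the limma test against vehicle and 910 (7.57%) had an unadjusted p under 0.05, while against induced wild type the numbers were 0 (0%) and 664 (5.52%). The smallest adjusted p among the related genes was that of NEB, a giant protein of the muscle thin filament. Its conversion was 3.74% ± 0.61 in induced mutant (SD, n = 2), against 1.75% ± 0.78 in induced wild type and 0.709% ± 0.28 with vehicle (n = 3 each), and its log2 difference from vehicle was 1.42 (SE 0.16, limma adjusted p = 0.164). COL27A1 had 7.13% ± 0.66 in induced mutant, against 5.80% ± 0.45 in induced wild type and 3.45% ± 0.27 with vehicle, a difference from vehicle of 0.81 (SE 0.15, limma adjusted p = 0.457).

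COL5A1, LOC101448202 and AK1 lie on chromosome 9, PTPRF on 1, SORCS2 on 4, C8orf73 on 8 and MYBPC2 on 19. Among the 3 genes on each side in RefSeq order, 13 were tested, beside PTPRF, AK1, C8orf73 and MYBPC2, and none passed against either group. In induced mutant against vehicle they ranged from -0.48 for HYI, beside PTPRF, to 0.50 for SPIB, an ETS factor of B cells beside MYBPC2, with a median of -0.13. Of the 6 neighbours of each, 2 of COL5A1, 4 of LOC101448202 and 2 of SORCS2 had a row in the all-read table, and none of these averaged 1 CPM. The other neighbours were not analysed here.

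Genes with the most similar pattern were taken by Pearson's r of log2(CPM + 1) over the 8 libraries, among genes with a mean of at least 5 CPM, and libraries of 1 group share their line and treatment. For PTPRF these were PTPRS (r = 0.978) and SLC9A3-AS1 (0.972), and for COL5A1 SLC9A3-AS1 (0.988) and PTDSS1 (0.987), a phosphatidylserine synthase gene. They were SH3BP2 (0.993) and MIB2 (0.992) for LOC101448202, PHYH (0.973) and ATHL1 (0.967) for AK1, and GOLGA8B (0.991) and LMF2 (0.982) for C8orf73. SORCS2 was most like AVEN (0.940), and ANKRD30BL was also alike in pattern to SORCS2 (0.912) and to MYBPC2 (0.911). ANKRD30BL averaged 3088 ± 2287 CPM in induced mutant (SD, n = 2), against 862 ± 237 in induced wild type and 523 ± 24.5 with vehicle (n = 3 each). Over the 21 pairs of members the size of r was 0.804 to 0.992, which the choice of genes by these libraries fixes.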

How the data were processed

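SLAM-seq libraries of NALM6 RNA were analysed in 3 groups of 2 to 3. Per the labels, 4 µg of RNA was thiol-modified before stranded mRNA libraries were made. The build was hg19 (GRCh37), per the submitters' processing notes. The aligner, the caller and any use of strand were not given in the sources used here. Members and lists were chosen with earlier results of these data known.

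All-read values, headed CPM per the file headers, are a signal per RefSeq transcript as deposited by the authors. In each library 100% of values were whole multiples of the smallest value within 0.1, taken as reads. Conversion values were deposited by the authors as a fraction and are printed as percent. Of 29863 values with a single read, 12527 lay strictly between 0 and 1, so they were read as rates per base. Converted reads were deposited by the authors as FPKM, of unknown depth.

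A gene took its transcript with the highest mean. Symbols missing for 25396 transcripts were taken from RefSeq (GRCh38.p14, names and gene order only) for 24846. Limma 3.58.1 (R 4.3.3) was fitted to all 8 libraries with no covariate, on log2(CPM + 1) where the mean was at least 1 CPM. It was also fitted on log2(conversion percent + 1), where values under 10 reads were missing and 2 values per group were needed. P-values were Benjamini-Hochberg adjusted over all genes tested, passing below 0.05. As alternatives, edgeR 4.0.16 and DESeq2 1.42.0 were run on recovered reads. The fits were also run on simulated data with known changes. The spread of those data was set beforehand and not taken from these libraries, so they do not show how well the fits work here. Besides the members, up to 2 genes per list with the smallest p are named, with neighbours at the ends of their range and the 2 genes most alike in pattern to each member, except 1 that is not reported here. AK6 had no row of its own and was not used.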

Additional observations from a re-analysis of the deposited data

How the results depend on the processing

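Of 600 recomputed differences of the 7 genes, 23 of those between induced wild type and vehicle changed sign, and none passed. In conversion, 11 differences of induced mutant from either group also changed sign, 5 for C8orf73, 4 for LOC101448202 and 2 for AK1. The ranges and values in the rest of this paragraph are differences of induced wild type from vehicle. With a library left out, they ranged in all reads from -0.0063 to 0.38 for COL5A1, -0.0325 to 0.192 for LOC101448202 and -0.0589 to 0.298 for PTPRF. They ranged from -0.045 to 0.0986 for MYBPC2 and -0.0064 to 0.308 for SORCS2. In conversion they ranged from -0.293 to 0.0132 for COL5A1, -0.190 to 0.104 for PTPRF, -0.0626 to 0.194 for AK1 and -0.0662 to 0.151 for C8orf73. In all reads, median centring gave -0.0239 for LOC101448202, -0.047 for PTPRF and -0.102 for MYBPC2. EdgeR gave -0.0365 for PTPRF and -0.0859 for MYBPC2, and DESeq2 -0.0098 for LOC101448202, -0.0532 for PTPRF and -0.101 for MYBPC2. Without centring, PTPRF conversion was at 0.0816.

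In all reads the direction of each member in induced mutant was fixed by the choice of genes, and the size against vehicle ranged from -2.79 to -2.04 for COL5A1 and from 1.61 to 2.80 for MYBPC2. Counts of genes called depended on the setting, and the cause was not tested. In all reads, induced mutant against vehicle gave 4 genes, but 7 with only the groups compared, 75 with DESeq2 and 0 to 13 with a library left out, 13 being without induced wild type B. Induced mutant against induced wild type gave 4, but 13 with DESeq2 and 0 to 4 with a library left out. Induced wild type against vehicle gave 0, but 2 with median centring and 2 with DESeq2. In conversion all 3 comparisons gave 0. A pseudocount of 0.25 points gave 1 gene in induced mutant against vehicle and 1 against induced wild type, and no centring gave 1 against vehicle. At least 20 reads gave 1 in induced mutant against induced wild type and 1 in induced wild type against vehicle. Leaving out a library gave 0 to 1 in both, 1 being without induced wild type B. A lone mutant library was assumed to vary like the other groups. The mean over all transcripts of a gene was added for gene counts after seeing the data.

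Deviations of libraries with the same letter had correlations from -0.64 to 0.65, and the letters were not used to pair them in the main fit. With so few libraries a group, these correlations cannot settle whether the letters mark a pairing. With the replicate letter as a block, all reads gave 1 gene in induced mutant against vehicle and 1 in induced wild type against vehicle. Members with 6 to 31 reads in a library limit what their conversion rates can show.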
